A study of Mus musculus with 30 samples.

Results

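The insulin-like growth factor (IGF) axis was followed in the mouse abdominal aorta through 9 genes: the ligand gene Igf1, the receptor genes Igf1r and Igf2r, and the binding protein genes Igfbp2, Igfbp3, Igfbp4, Igfbp5, Igfbp6 and Igfbp7. The 9 were taken by name from 14379 genes. Their values were FPKM, that is fragments per kilobase of a transcript relative to the size of the library, summed for each gene over the annotated transcripts listed in every library. A filter on low values kept a gene when 5 or more of the 30 libraries had 1 FPKM or more. All 9 members passed it, as did 13223 genes in all.

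The libraries came from total RNA of wild-type (WT) C57BL/6 mice, with 5 libraries in each of 6 groups. Control mice had saline for 28 days. The AngII group had angiotensin II at 500 ng/kg/min for 28 days, with saline in place of a compound. The 4 other groups had the same angiotensin II for 28 days together with a compound: ethoxysanguinarine at 5 mg/kg/day (AngII+ETH), baicalin at 5 mg/kg/day (AngII+BAI), gastrodin at 5 mg/kg/day (AngII+GAS) or valsartan, a blocker of the type 1 angiotensin receptor, at 10.4 mg/kg/day (AngII+VAL). No group studied here had a compound without angiotensin II. The labels do not state that each library came from a separate mouse, so the p-values measure the spread between these libraries. Age and sex are not given in the sources used here.

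IGF1 is a secreted growth factor that acts on vascular smooth muscle through the tyrosine kinase receptor IGF1R and the AKT and ERK pathways, promoting survival, growth and migration. IGF2R binds IGF2 and carries it to lysosomes without such signalling. The binding proteins IGFBP2 to IGFBP6 hold IGF1 and IGF2 with high affinity, store them in plasma or matrix and release them when cleaved by proteases, whereas IGFBP7 binds IGFs weakly and is abundant in vessel walls.

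The promoters of 3 members are shown because Igfbp2 and Igfbp7 varied together from library to library within groups (given below), while Igfbp5 is the chromosomal neighbour of Igfbp2. On GRCm38, Igfbp2 (ENSMUSG00000039323) spans chr1:72824503-72852474 on the plus strand and Igfbp5 (ENSMUSG00000026185) spans chr1:72857932-72874884 on the minus strand. Their 3' ends face each other across 5457 bases. Igfbp7 (ENSMUSG00000036256) spans chr5:77349240-77408041 on the minus strand. Each sequence is the 250 bases before the RefSeq start on GRCm38.p6, read 5′ to 3′ on the gene's strand, at chr1:72824230-72824479 for Igfbp2, chr5:77408046-77408295 for Igfbp7 and chr1:72874866-72875115 for Igfbp5. Capitals mark GGGCGG on either strand, the core of the GC box, a common promoter element.
Igfbp2: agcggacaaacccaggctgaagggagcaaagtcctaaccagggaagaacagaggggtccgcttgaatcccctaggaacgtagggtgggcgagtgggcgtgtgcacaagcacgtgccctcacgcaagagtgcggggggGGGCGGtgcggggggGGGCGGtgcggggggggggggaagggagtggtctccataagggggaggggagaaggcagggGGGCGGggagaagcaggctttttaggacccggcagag
Igfbp7: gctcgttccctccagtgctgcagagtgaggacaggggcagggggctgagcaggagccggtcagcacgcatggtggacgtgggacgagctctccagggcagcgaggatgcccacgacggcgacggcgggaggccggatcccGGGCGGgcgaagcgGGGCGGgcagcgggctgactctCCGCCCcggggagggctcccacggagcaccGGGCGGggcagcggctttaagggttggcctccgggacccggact
Igfbp5: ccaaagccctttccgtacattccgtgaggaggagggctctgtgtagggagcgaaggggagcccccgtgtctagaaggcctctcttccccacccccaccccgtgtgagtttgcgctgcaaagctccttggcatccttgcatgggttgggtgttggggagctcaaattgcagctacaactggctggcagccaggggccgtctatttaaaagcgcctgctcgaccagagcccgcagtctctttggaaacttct
The Igfbp2 window held 3 matches, the Igfbp7 window 4 and the Igfbp5 window 0. Of 32851 RefSeq promoter windows of this length, 32.7% held at least 1 GGGCGG and 8.47% held 3 or more. All 9 members matched the RefSeq table. Igf2r held 3 and Igf1r 2, while Igf1, Igfbp3, Igfbp4, Igfbp6 and a second RefSeq start of Igfbp2 held 0. TATAAA, searched on both strands, shares no letter with GGGCGG, so the motifs cannot overlap. It was present once in Igfbp4 and once in Igfbp6, and in 12.4% of all windows. A match describes letters in a window and is not evidence of binding.

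The depth recovered from the spacing of low FPKM values was 69780000 to 80820000 reads per library, at which 3 reads in a 2 kb transcript are worth 0.0186 to 0.0215 FPKM. All 12 smooth muscle markers of a marker list were above 0 in every group. Library numbers within a group follow the order of deposition and come from no label. Several libraries stood apart. AngII+BAI 3 and AngII+BAI 5 had the lowest summed smooth muscle markers of that group (1771 and 3000 FPKM, against a group maximum of 12467) and high macrophage markers (3057 and 2042 FPKM, against 325 to 580 in Control). AngII+VAL 2 also had high macrophage markers (1637 FPKM). AngII+BAI 1 listed Igf1r and Igf2r at exactly 0. It listed at 0 64 of 6882 genes that had at least 2 FPKM in all other libraries, 1 of them a member, Igf2r. No other library listed more than 5 such genes at 0, so the Igf2r value may be a failed estimate. Igf1r was below 2 FPKM in other libraries too, so the count does not cover it. Its 0 may be a failed estimate or a low level. Neuron and ganglion markers were high in AngII 1, 4 and 5 (293 to 1248 FPKM, against 20 to 102 in Control), AngII+ETH 1 (677 FPKM) and AngII+VAL 4 (426 FPKM). Above the Control range were also AngII+ETH 4 and 5 (219 and 168 FPKM) and AngII+BAI 1, 3 and 5 (177, 174 and 226 FPKM). AngII+GAS 2 and 5 were above it too (141 and 113 FPKM). Skeletal muscle markers were high in Control 1 and 2 (1408 and 4058 FPKM), AngII+ETH 1 (1419 FPKM), AngII+BAI 3 (3148 FPKM) and all 5 AngII+VAL libraries (690.02 to 3629 FPKM), against 22.5 to 178 FPKM in AngII.

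With angiotensin II alone, the binding protein genes Igfbp2, Igfbp6 and Igfbp7 were each higher in all 5 AngII libraries than in any Control library. The mean of Igfbp2 was 7.46 times that of Control, that of Igfbp7 2.02 times and that of Igfbp6 1.96 times. No difference in any of the 9 genes passed a Benjamini-Hochberg adjusted p of 0.05 in limma, fitted on log2(FPKM + 1) over all 13223 genes, and neither did any other gene: 0% were called. By the looser reading of separated ranges, 3 of the 9 members lay wholly above Control, as did 3.01% of all genes, and 0 lay wholly below, as did 0.537%. The median difference over the 9 members was 0.43 on the log2 scale, against 0.11 over all genes. The median over all genes was -0.02 after quantile normalization and 0.01 with median of ratios scaling. Both scalings bring that median near 0 by design, so these values cannot tell where the shift came from. An unadjusted p below 0.05 was reached by 4 members and by 11.2% of all genes.

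**Figure D1:**
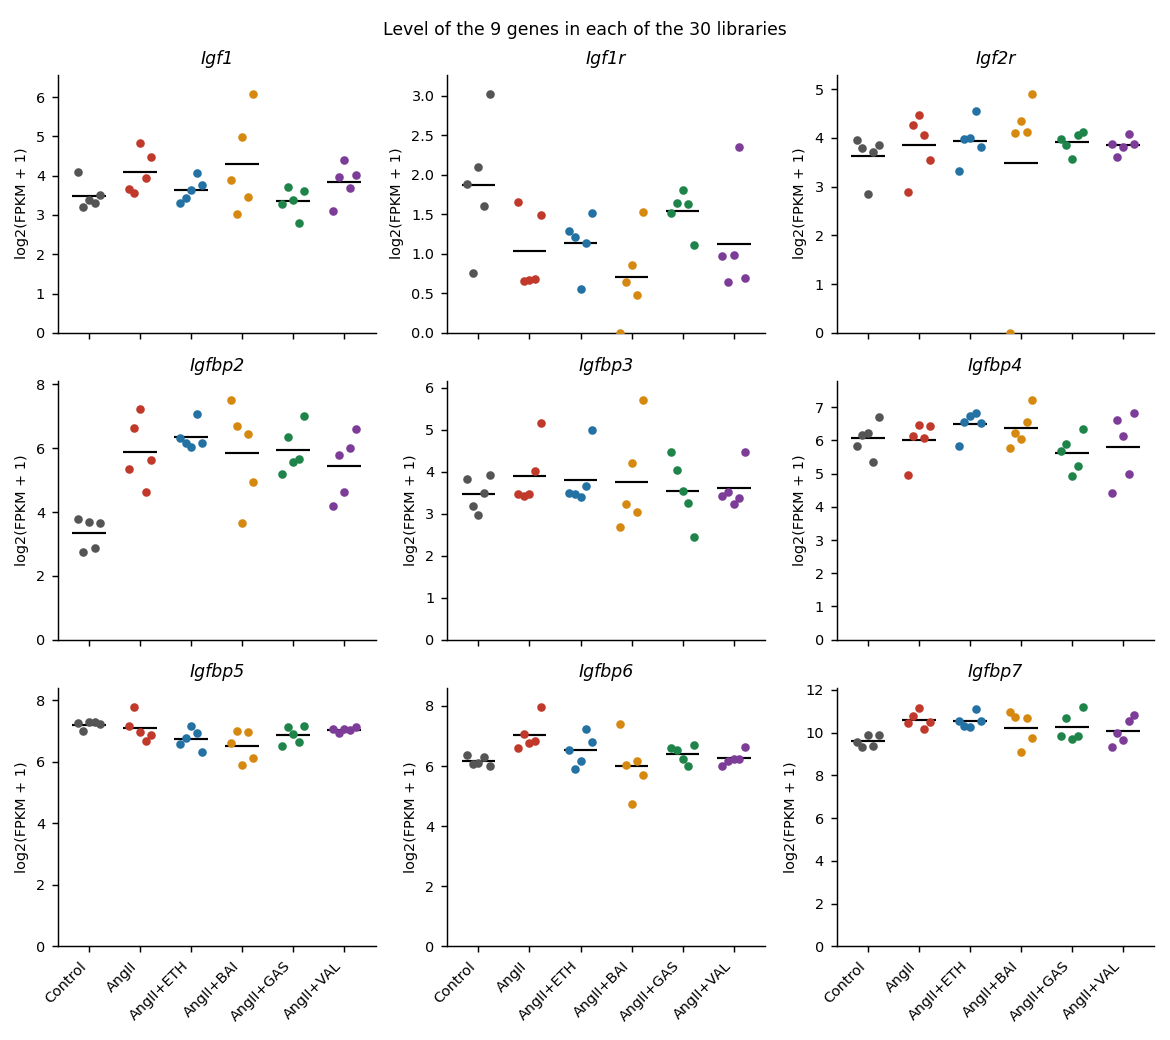
Each panel shows 1 gene and each point 1 library, as log2(FPKM + 1), by group, with a black line at the mean of the log2 values (n = 5 per group). The Igfbp2 points of all angiotensin II groups lie above Control except AngII+BAI 3, and the Igf1r and Igf2r points of AngII+BAI 1 lie at 0.

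Igf1 (ENSMUSG00000020053, chr10:87858265-87937042, plus strand) encodes the ligand. In Control its values were 16.1, 8.14, 9.34, 8.86 and 10.4 FPKM, and in AngII they were 11.6, 10.9, 27.4, 14.4 and 21.1 FPKM. The ranges overlapped, since Control 1 lay above 3 AngII libraries. The log2 difference was 0.60 (SE 0.39, limma adjusted p = 0.593). Its group means ran from 9.49 ± 2.42 FPKM in AngII+GAS (SD, n = 5) to 25.7 ± 24.8 FPKM in AngII+BAI. In that group AngII+BAI 3 (30.5 FPKM) and AngII+BAI 5 (67.0 FPKM), both with high macrophage markers, held the top values. Without those libraries the AngII+BAI mean was 10.3 ± 3.32 FPKM (SD, n = 3). AngII+VAL 2, with 1637 FPKM of macrophage markers, had 14.5 FPKM of Igf1. AngII+BAI 5 also had the highest fibroblast markers of the 30 libraries (10860 FPKM). Macrophages are a known source of IGF1. The part of macrophage or fibroblast content in this result was not tested beyond the relations given below.

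Igf1r (ENSMUSG00000005533, chr7:67952827-68233668, plus strand), the signalling receptor, was the lowest expressed member. Its values were 2.68, 0.689, 3.27, 2.04 and 7.14 FPKM in Control and 2.14, 0.572, 0.590, 0.601 and 1.81 FPKM in AngII. Only 3 AngII libraries lay below the lowest Control library, so the ranges overlapped. The log2 difference was -0.84 (SE 0.35, limma adjusted p = 0.352). Control had the highest mean of the 6 groups, at 3.16 ± 2.42 FPKM (SD, n = 5), and AngII+BAI the lowest, at 0.730 ± 0.712 FPKM with the library listed at 0 and 0.913 ± 0.674 FPKM (n = 4) without it.

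Igf2r (ENSMUSG00000023830, chr17:12682406-12769664, minus strand), the clearance receptor, had 14.5, 12.9, 6.23, 12.2 and 13.5 FPKM in Control and 6.44, 18.3, 21.3, 15.7 and 10.6 FPKM in AngII. The groups overlapped over most of their ranges. The log2 difference was 0.21 (SE 0.54, limma adjusted p = 0.919), with a 95% interval from -0.90 to 1.32. Group means ran from 11.9 FPKM in Control to 16.2 FPKM in AngII+BAI, or 20.2 FPKM (n = 4) without the AngII+BAI library listed at 0. Leaving that library out turned the AngII+BAI difference from AngII from -0.35 to 0.52.

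Igfbp2 binds both IGFs and can also bind integrins. Its Control values were 12.6, 5.67, 11.9, 6.25 and 11.6 FPKM, and its AngII values were 39.6, 98.6, 148, 23.6 and 48.7 FPKM. The lowest AngII library lay above the highest Control library, and the AngII libraries differed among themselves far more than the Control libraries did. Group means were 71.8 ± 51.1 FPKM in AngII and 9.62 ± 3.37 FPKM in Control (SD, n = 5 each). The log2 difference was 2.55 (SE 0.57, 95% interval 1.37 to 3.72, limma adjusted p = 0.139), which ranked 13 among 13223 genes by unadjusted p. Adjusted p-values of this difference were below 0.05 with sample weights (2.43, adjusted p = 0.0179), without AngII+BAI 3 and 5 (2.55, adjusted p = 0.0327) and with a smooth muscle marker score as a term (2.34, adjusted p = 0.00463). The latter 2 settings were chosen after seeing the data. With neuron and skeletal muscle scores as terms the difference was 2.73 (adjusted p = 0.671), and without Control 1 and 2 and AngII 1, 4 and 5 it was 3.53 (SE 0.81, adjusted p = 0.402).

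Igfbp7 was the most abundant member per length in every group. It had 750.5, 648, 955, 661 and 930.1 FPKM in Control and 1400.5, 1724, 2278, 1129 and 1440.0 FPKM in AngII. All AngII values exceeded all Control values. Means were 1594 ± 437 FPKM in AngII and 789 ± 146 FPKM in Control (SD, n = 5 each), a log2 difference of 0.99 (SE 0.34, 95% interval 0.30 to 1.68, limma adjusted p = 0.276).

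Igfbp6 (ENSMUSG00000023046, chr15:102144362-102149511, plus strand) encodes a protein that prefers IGF2 to IGF1. It had 81.5, 65.6, 67.6, 77.5 and 62.4 FPKM in Control and 95.6, 132, 108, 113 and 247 FPKM in AngII. The ranges were separate, and AngII 5 lay far above the other 4. Means were 139 ± 61.8 FPKM in AngII and 70.9 ± 8.17 FPKM in Control (SD, n = 5 each). The log2 difference was 0.88 (SE 0.32, limma adjusted p = 0.291). AngII also had the highest Igfbp6 mean of the 6 groups.

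These results come from whole aorta, where fewer cells of a type and less RNA per cell cannot be told apart. Summed smooth muscle markers ran from 5929 to 10080 FPKM in Control and from 7066 to 8866 FPKM in AngII, with 9 of 12 markers higher and a median log2 difference of 0.15. Summed fibroblast markers ran from 2429 to 3350 FPKM in Control and from 3359 to 7469 FPKM in AngII, with 16 of 16 markers higher, none at 0 and a median of 0.54. Schwann cell markers ran from 47.9 to 118 FPKM in Control and from 123 to 390 FPKM in AngII, with 11 of 11 tested markers higher, a median of 0.88 and the top value in AngII 5, the library with the highest Igfbp6. Mitochondrial transcripts made up 20.2% ± 1.39 of the FPKM in Control and 14.97% ± 4.27 in AngII (SD, n = 5 each). Macrophage markers summed to 325 to 580 FPKM in Control and 372 to 965 FPKM in AngII (11 of 12 higher, median 0.42). Brown adipocyte markers summed to 1362 to 4096 FPKM in Control and 584 to 3122 FPKM in AngII (11 of 11 lower, median -0.72). Neuron and ganglion markers summed to 19.7 to 102 FPKM in Control and 18.6 to 1248 FPKM in AngII (16 of 16 higher, median 2.17). Their top value was again in AngII 5. Skeletal muscle markers summed to 45.8 to 4058 FPKM in Control and 22.5 to 178 FPKM in AngII (12 of 12 lower, median -2.06). The smooth muscle term above bears on the smooth muscle markers alone. The fit with neuron and skeletal muscle scores, given above for Igfbp2, bears on those lists. The part of the other shifts of this paragraph in the binding protein differences was not tested.

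The other 3 binding protein genes showed no such separation. Igfbp5, the highest of Igfbp2 to Igfbp6 in Control, had 151, 126, 155, 155 and 149 FPKM there and 143, 217, 125, 100.3 and 115 FPKM in AngII, and the ranges overlapped (log2 difference -0.12, SE 0.21, limma adjusted p = 0.865). Igfbp4 (ENSMUSG00000017493, chr11:99041244-99054392, plus strand) encodes an IGF inhibitor that pappalysin cleaves. It had 55.9, 70.9, 74.1, 39.8 and 103 FPKM in Control and 30.2, 69.6, 86.6, 66.2 and 84.5 FPKM in AngII (log2 difference -0.05, SE 0.39, limma adjusted p = 0.982). Igfbp3 (ENSMUSG00000020427, chr11:7206086-7213923, minus strand) encodes the main carrier of IGFs in blood. It had 13.1, 8.08, 6.80, 10.2 and 14.1 FPKM in Control and 10.1, 9.66, 10.01, 15.2 and 34.6 FPKM in AngII. AngII 5 set the higher Igfbp3 mean of that group, and the difference was 0.43 on the log2 scale (SE 0.46, limma adjusted p = 0.760).

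**Figure D2:**
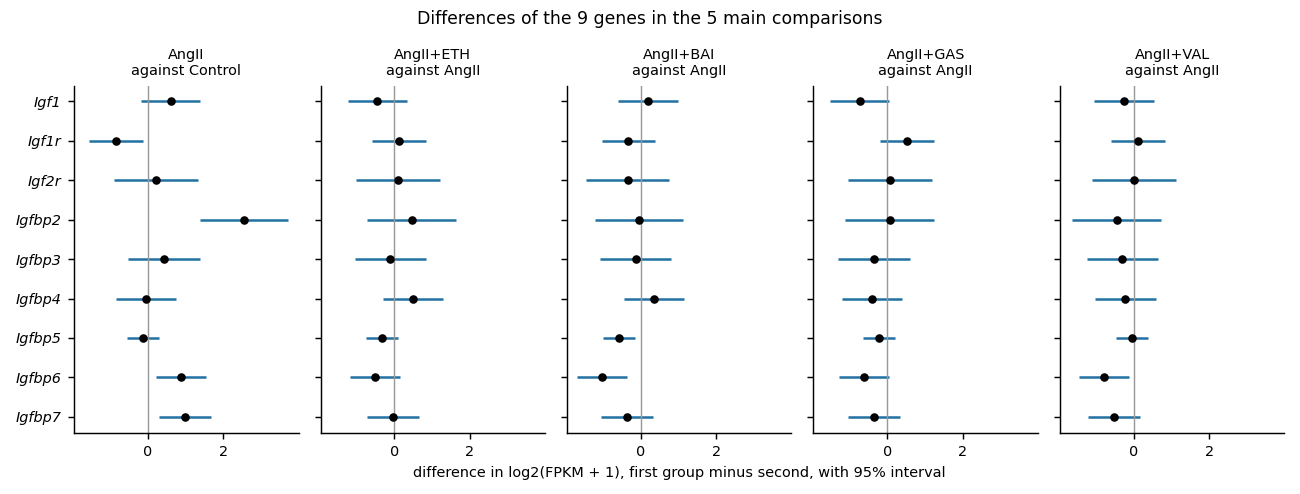
Points are limma log2 differences of log2(FPKM + 1) and bars their 95% intervals for the 9 genes, in AngII against Control and in each compound group against AngII. In AngII against Control the interval of Igfbp2 runs from 1.37 to 3.72, and in the comparisons with AngII the intervals of Igfbp6 under baicalin and valsartan and of Igfbp5 under baicalin lie below 0.

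Each compound group was then compared with AngII, which asks whether the compound moved these genes from their level under angiotensin II. The 4 comparisons share the AngII libraries. No member was called in any of them, where limma called 0% of all genes with ethoxysanguinarine, 0.333% with baicalin, 0.0151% with gastrodin and 0% with valsartan. An unadjusted p below 0.05 was reached by 0 members with ethoxysanguinarine, 2 with baicalin, 0 with gastrodin and 1 with valsartan, against 3.41%, 14.6%, 13.7% and 10.8% of all genes. The 1 of 9 with valsartan is near that background. No member had separate ranges in any of the 4, against 0.0681% of all genes wholly above AngII and 0.431% wholly below with ethoxysanguinarine, 0.303% and 1.4% with baicalin, 0.106% and 2.21% with gastrodin, and 0.537% and 2.42% with valsartan. The median difference over members was -0.04, -0.33, -0.35 and -0.26 in that order, against -0.09, -0.01, -0.17 and -0.12 over all genes. After quantile normalization, which brings the median over all genes near 0 by design, it was 0.01 with gastrodin and 0.00 with valsartan.

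Igfbp6 had the lowest log2 difference from AngII of the 9 members with baicalin, valsartan and ethoxysanguinarine, and Igf1 with gastrodin. Its AngII+BAI libraries had 169, 64.6, 25.8, 70.6 and 51.0 FPKM, of which 4 lay below every AngII library and AngII+BAI 1 above all but AngII 5. The difference was -1.03 on the log2 scale (SE 0.32, limma adjusted p = 0.145). Leaving out AngII+BAI 1 gave -1.38 with an adjusted p of 0.0309. AngII+VAL had 63.6, 70.8, 73.9, 74.5 and 97.9 FPKM, again with 4 of 5 below every AngII library, and a difference of -0.79 (SE 0.32, limma adjusted p = 0.368). AngII+GAS had 96.5, 91.2, 74.3, 63.0 and 103.6 FPKM, with a difference of -0.62 (95% interval -1.29 to 0.04). AngII+ETH had 91.5, 58.5, 70.5, 150.5 and 111 FPKM, with a difference of -0.51 (95% interval -1.17 to 0.15). The compound groups had means between 76.1 and 96.4 FPKM, against 70.9 FPKM in Control and 139 FPKM in AngII, where AngII 5 raised the mean above the median of 113 FPKM.

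Igfbp2 had means of 50.9 to 83.6 FPKM in the compound groups, against 71.8 FPKM in AngII. AngII+ETH had 79.6, 70.3, 64.5, 132 and 71.1 FPKM, the narrowest spread relative to its mean of the groups with angiotensin II. AngII+BAI had 179, 102, 11.6, 86.9 and 29.8 FPKM, with AngII+BAI 3 inside the Control range. AngII+GAS had 35.8, 81.3, 46.0, 49.9 and 127 FPKM. All of these ranges overlapped the AngII range of 23.6 to 148 FPKM. AngII+VAL had 17.2, 54.1, 23.5, 62.9 and 96.6 FPKM and the lowest mean of the 5, at 50.9 ± 32.1 FPKM (SD, n = 5). Against AngII the log2 differences were 0.46 (95% interval -0.72 to 1.63) with ethoxysanguinarine, -0.05 (-1.22 to 1.13) with baicalin, 0.07 (-1.11 to 1.24) with gastrodin and -0.45 (-1.63 to 0.72) with valsartan. The baicalin value turned to 0.99 without AngII+BAI 3 and 5. The gastrodin value turned to -0.22 with neuron and skeletal muscle scores as terms.

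Igfbp7 had 1509.6, 1248, 1238, 2211 and 1499.7 FPKM in AngII+ETH and 1973, 1696, 546.8, 1626 and 846 FPKM in AngII+BAI, where libraries 3 and 5 were again the lowest. AngII+GAS had 906, 1644, 822, 908 and 2313 FPKM and AngII+VAL had 640.0, 1008, 809.7, 1477 and 1827 FPKM. Each range overlapped both AngII and, except for AngII+ETH, Control. The differences from AngII were -0.04 (95% interval -0.73 to 0.65) with ethoxysanguinarine, -0.37 (-1.06 to 0.33) with baicalin, -0.36 (-1.05 to 0.33) with gastrodin and -0.53 (-1.22 to 0.16) with valsartan.

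Igfbp5 was the second member with an unadjusted p below 0.05 under baicalin. AngII+BAI had 95.7, 126, 58.1, 125 and 68.1 FPKM, lowest in libraries 3 and 5, and differed from AngII by -0.57 (SE 0.21, limma adjusted p = 0.195). The AngII+VAL values were tight, from 120.2 to 138 FPKM, and differed from AngII by -0.05 (95% interval -0.47 to 0.38), while AngII+ETH ran from 78.5 to 142 FPKM and AngII+GAS from 90.8 to 143 FPKM. Igfbp4 ran from 20.5 to 112 FPKM in AngII+VAL, and its highest group mean was that of AngII+ETH, at 91.6 ± 21.6 FPKM (SD, n = 5). Igfbp3 was highest in AngII 5, AngII+ETH 5 and AngII+BAI 5 (34.6, 30.7 and 50.8 FPKM) and at most 21.2 FPKM in the other libraries.

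For the ligand and receptors the compounds gave no call either. Igf1 in AngII+GAS had 8.75, 12.2, 9.36, 5.93 and 11.2 FPKM, of which 3 lay below the lowest AngII library, and the log2 difference from AngII was -0.74 (95% interval -1.53 to 0.06, limma adjusted p = 0.399). Igf1 ran from 8.92 to 15.8 FPKM in AngII+ETH and from 7.64 to 20.1 FPKM in AngII+VAL. Igf1r had 1.87, 2.12, 2.50, 2.11 and 1.15 FPKM in AngII+GAS, 0.51 above AngII on the log2 scale (95% interval -0.20 to 1.23). Igf2r ran from 10.9 to 16.3 FPKM in AngII+GAS and from 11.3 to 15.9 FPKM in AngII+VAL, a narrower range than in AngII.

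The compounds were also set against each other in 6 comparisons, although their doses were equal only for ethoxysanguinarine, baicalin and gastrodin. Of 54 tests of members, 0 were called and the lowest limma adjusted p was 0.169. Over all genes limma called 0.597% in valsartan against baicalin and 0% in the other 5 comparisons. An unadjusted p below 0.05 was reached by Igf1 and Igf1r in gastrodin against baicalin (20.3% of all genes), Igfbp4 in gastrodin against ethoxysanguinarine (3.89%) and Igfbp5 in valsartan against baicalin (17.0%). Ordering the 6 groups by mean gave 45 pairs of neighbours over the 9 genes, of which 0 had an adjusted p below 0.05 (lowest 0.505). In 1 pair, Igfbp2 in AngII+VAL above Control, the ranges did not overlap.

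The groups given a compound were then compared with Control, which the labels allow and which shows how far each member stood from saline. These comparisons share the Control libraries. Igfbp2 rose in AngII+BAI by 2.50 on the log2 scale (SE 0.57, limma adjusted p = 0.0390), in 4 of 5 libraries above every Control library. It was the only one of the 9 members called there, against 1.44% of all genes. The call was lost in a fit of the 2 groups alone (adjusted p = 0.334) and on leaving out Control 1, 2, 3 or 4 or AngII+BAI 1 or 5, with adjusted p from 0.0667 to 0.0952. Without AngII+BAI 3 and 5 together the difference was 3.54 with an adjusted p of 0.00269. In the other comparisons Igfbp2 differed by 3.01 (adjusted p = 0.129) with ethoxysanguinarine, 2.62 (adjusted p = 0.341) with gastrodin and 2.10 (adjusted p = 0.631) with valsartan, where 0%, 0.00756% and 0% of all genes were called. In these 3 groups every Igfbp2 value lay above every Control value, as was so for 1.29%, 0.265% and 0.461% of all genes in the same order. In AngII+BAI, where 2.23% of all genes lay wholly above Control, no member did.

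In AngII+ETH the Igfbp7 libraries too lay wholly above Control (0.95, SE 0.34, limma adjusted p = 0.956). Under baicalin, Igf1r differed from Control by -1.17 (SE 0.35, limma adjusted p = 0.0793) and Igfbp5 by -0.70 (SE 0.21, adjusted p = 0.0793). The Igf1r value includes the library listed at 0. Adjusted p for Igfbp5 was below 0.05 after quantile normalization (-0.87, 0.0465) and without AngII+BAI 2 (-0.82, 0.0235) or 4 (-0.81, 0.0311), and that for Igf1r with neuron and skeletal muscle scores as terms (-1.33, 0.0354).

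Over all 25 libraries with angiotensin II, a contrast chosen after seeing the data, Igfbp2 rose by 2.55 on the log2 scale (SE 0.44, 95% interval 1.64 to 3.46, limma adjusted p = 0.0140). Its 25 values ran from 11.6 to 179 FPKM with a median of 64.5 FPKM, and 24 of 25 lay above the highest Control value of 12.6 FPKM. It was the only member called, against 0.0454% of all genes, while 0.0227% of all genes had all 25 values above Control. The call was lost without Control 1, 2, 3 or 4 (adjusted p = 0.0853, 0.0776, 0.0908 and 0.121) and remained without Control 5 (0.0407). Igfbp7 had 18 of 25 values above the highest Control value (0.73, SE 0.26, adjusted p = 0.673), and Igfbp6 had 13 of 25 (0.29, SE 0.25, adjusted p = 0.862). Igf1r (-0.76, SE 0.27, adjusted p = 0.654) and Igfbp5 (-0.36, SE 0.16, adjusted p = 0.755) had lower means with angiotensin II, with 9 and 15 of 25 values below the lowest Control value. The Igf1r count includes AngII+BAI 1, listed at 0, and Control 2 set the lowest Control value of both genes. No share over all genes is given for the counts of Igfbp7, Igfbp6, Igf1r and Igfbp5. A test for any difference among the 6 groups gave Igfbp2 an adjusted p of 0.105, with 0% of genes called.

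The 5 high-affinity binding protein genes were also read as a sum and as shares of it. The sum of Igfbp2 to Igfbp6 was 307 ± 24.8 FPKM in Control and 434 ± 108 FPKM in AngII (SD, n = 5 each), with 395 ± 78.3 FPKM in AngII+ETH, 357 ± 117 FPKM in AngII+BAI, 335 ± 84.6 FPKM in AngII+GAS and 335 ± 82.3 FPKM in AngII+VAL. Igfbp2 made up 2.05% to 4.02% of that sum in Control and 7.43% to 31.0% in AngII. Its share averaged 20.96% ± 3.61 in AngII+ETH, 20.1% ± 12.4 in AngII+BAI, 19.4% ± 5.79 in AngII+GAS and 14.3% ± 6.65 in AngII+VAL. The lowest share in a library with angiotensin II, 6.51% in AngII+BAI 3, exceeded the highest Control share. That library had 11.6 FPKM of Igfbp2, inside the Control range, and the lowest sum of the 30 libraries, at 178 FPKM. Its share therefore exceeded Control through its low sum. Igfbp5 made up 48.1% ± 3.79 in Control and 33.1% ± 9.79 in AngII, at mean levels of 147 and 140.1 FPKM, so its share differed together with the sum. These shares rest on the same values as the comparisons above and carry no separate test.

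**Figure D3:**
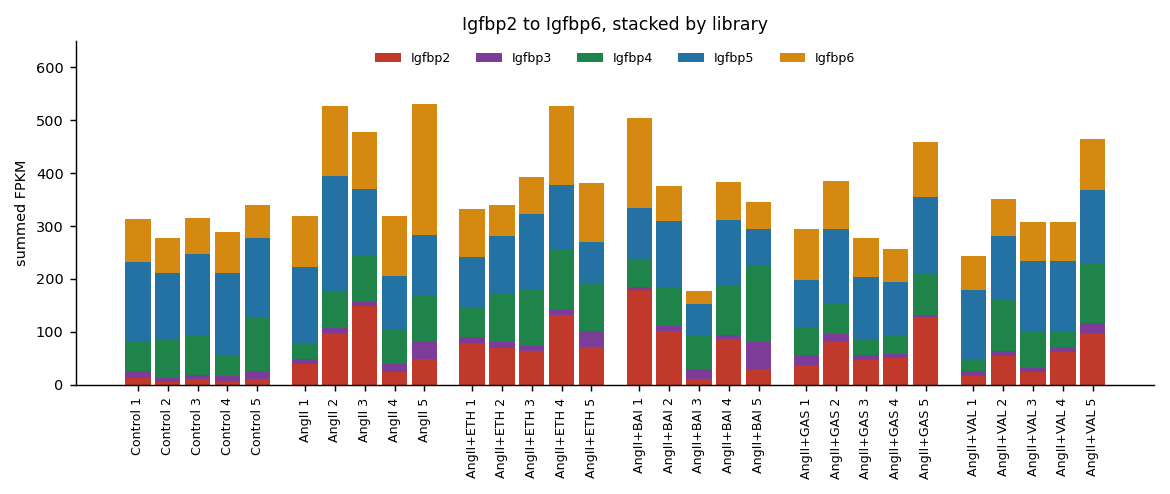
Stacked bars give the FPKM of Igfbp2 to Igfbp6 in each of the 30 libraries, ordered by group, on a linear axis from 0. The Igfbp2 segment is at most 4.02% of the bar in Control and at least 6.51% of it in every library with angiotensin II. The 6.51% belongs to AngII+BAI 3, which has the lowest bar (178 FPKM).

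Within groups, Igfbp2 and Igfbp7 moved together. After the group mean of log2(FPKM + 1) was subtracted, their Pearson correlation over 30 libraries was 0.94 and Spearman's rho 0.94 (permutation p = 1e-05, the smallest that 100000 permutations within groups can give, Benjamini-Hochberg adjusted p = 0.00036 over 36 pairs of members). Without the 2 libraries farthest from the Igfbp2 median r was 0.92. Of 7304 genes with a mean of at least 5 FPKM, Igfbp7 was the gene most like Igfbp2, followed by Mfge8 (0.93), a secreted glycoprotein of the vessel wall, and Htra1 (0.92), a secreted serine protease. The genes most like Igfbp7 were Twsg1 (0.95), Mfge8 (0.95) and Rras (0.94). AngII+BAI 3 and 5 were the lowest of their group in both Igfbp2 and Igfbp7.

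**Figure D4:**
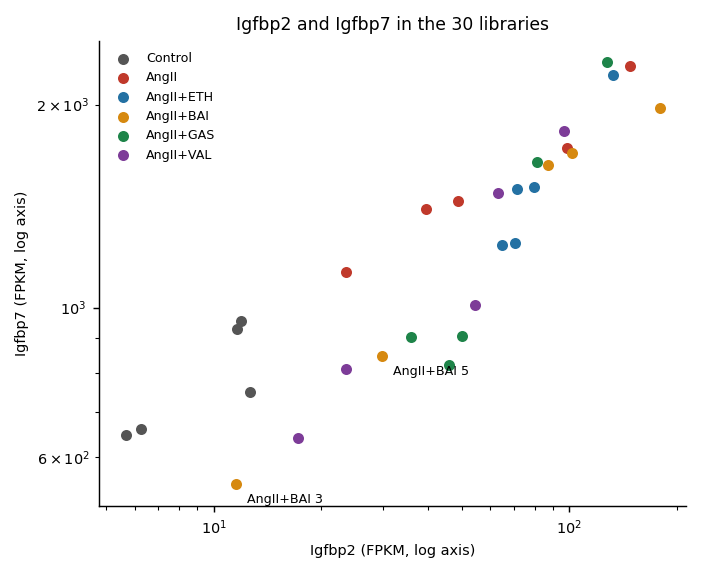
Each point is 1 of 30 libraries, with Igfbp2 FPKM and Igfbp7 FPKM on log axes and colour by group. Libraries of a group lie along a rising line, Control lies at the low Igfbp2 end, and AngII+BAI 3 and 5 are labelled.

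By Pearson's r, 6 of the 36 pairs had an adjusted permutation p below 0.05, all positive. Besides the first, these were Igfbp6 with Igfbp7 (r 0.61, adjusted p = 0.028) and Igfbp2 with Igfbp6 (r 0.61), Igfbp2 with Igfbp5 (r 0.60), Igfbp5 with Igfbp7 (r 0.56) and Igf1 with Igfbp4 (r 0.49), each at an adjusted p of 0.048. Leaving out the 2 farthest libraries lowered Igfbp2 with Igfbp6 to 0.33 and Igfbp6 with Igfbp7 to 0.43, so these rest in part on those libraries. By Spearman's rho 6 pairs also passed, with Igfbp5 and Igfbp7 (rho 0.53, adjusted permutation p = 0.052) replaced by a negative pair, Igfbp3 with Igfbp5 (rho -0.59, adjusted permutation p = 0.032, against r -0.57 and 0.062). Igfbp2 and its convergent neighbour Igfbp5 kept 0.54. The kit does not mark strand, so reads that run past the end of either gene cannot be assigned by strand.

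The same deviations were set against smooth muscle, fibroblast, macrophage and white adipocyte marker scores in 36 relations. Of these, 6 had an adjusted permutation p below 0.05 by Pearson's r and 10 by Spearman's rho. The other marker lists were not set against the members. Smooth muscle markers went with Igfbp7 (r 0.83, rho 0.80), Igfbp2 (r 0.81, rho 0.79), Igfbp5 (r 0.67) and Igfbp6 (r 0.63). These were 0.75, 0.70, 0.59 and 0.34 without the 2 farthest libraries. Macrophage markers went with Igf1 (r 0.72, rho 0.80, and 0.72 without the 2 farthest). Fibroblast markers went with Igfbp4 (r 0.54, rho 0.63, and r 0.47 without the 2 farthest). The 4 relations that passed by rho alone were fibroblast markers with Igf1 (rho 0.65), Igfbp7 (rho 0.56) and Igfbp6 (rho 0.55), and macrophage markers with Igfbp4 (rho 0.54). All of these share the libraries and their composition, so they describe how the libraries vary and not which cells make each message. With the smooth muscle score as a term, the Igfbp2 difference over all libraries with angiotensin II was 2.63 (limma adjusted p = 4e-06) and that of Igfbp7 0.78 (adjusted p = 0.0332).

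The other members had different companions. Igf1 was most like Plac8 (r 0.94) and Cfb (0.93), a complement factor. Igf1r was most like Nsg1 (0.65), Slc18a2 (0.63), the vesicular monoamine transporter, and Prkar1b (0.63). Igf2r was most like Mapk1ip1l, Ranbp2 and Atf6 (each 0.91), which came to 0.58 to 0.60 without the 2 farthest libraries. Igfbp3 was most like Snn (0.83) and Tgfbr3 (0.80), Igfbp4 like Nab2 (0.70), Igfbp5 like Wscd2 (0.80) and Mark1 (0.79), and Igfbp6 like Qpct (0.84), C1qtnf2 (0.84) and Clec3b (0.84).

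The 9 genes were listed through 14 transcripts, 12 of which passed the filter, and 0 of these were called in AngII against Control or in a compound group against AngII. The background there was 0.00426% of 23455 transcripts in AngII against Control and 0%, 0.162%, 0.00426% and 0.00426% in the compound comparisons. Shares of a gene's FPKM by transcript were compared in 20 exact two-sided permutation tests with a smallest possible p of 0.0079. Of these, 0 had an adjusted p below 0.05, and 4 had an unadjusted p below 0.05. With 20 tests, at least 4 would have to reach this smallest p for an adjusted p below 0.05, so the count of 0 was largely set by the design.

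The largest shift in share was in Igfbp7. Its main transcript (ENSMUST00000046746) codes for 282 codons in 5 exons, and a longer coding one (ENSMUST00000163898) for 313 codons in 6 exons. The share of the 6-exon transcript was 23.2%, 29.1%, 29.7%, 26.5% and 21.8% in AngII+VAL and 13.7%, 14.8%, 9.88%, 7.35% and 8.48% in AngII. Every AngII+VAL library lay above every AngII library. All 5 AngII+VAL libraries had high skeletal muscle markers, as did Control 1 and 2, AngII+ETH 1 and AngII+BAI 3. There the share of the 6-exon transcript was 9.31%, 9.85%, 14.5% and 13.5%, in that order. Kidney and adrenal markers (3 of 10 genes listed) summed to 70.9 to 101 FPKM in AngII+VAL, against 0.944 to 32.5 FPKM in AngII. They also summed to 71.9 FPKM in AngII+BAI 5, where the 6-exon share was 24.8%. In AngII+BAI 1, where that share was 20.4%, they summed to 1.70 FPKM. The part of these tissues in the shift was not tested. The share of the 5-exon transcript was 73.9% ± 3.52 in AngII+VAL and 89.2% ± 3.24 in AngII (SD, n = 5 each), a difference of -15.2 percentage points (exact permutation p = 0.0079, adjusted p = 0.0794). In Control the 6-exon transcript had 9.31% to 19.0%, in AngII+ETH 10.5% to 15.2% and in AngII+GAS 6.97% to 15.8%. In AngII+BAI it had 20.4%, 14.2%, 13.5%, 10.2% and 24.8%, so libraries 1 and 5 reached into or near the AngII+VAL range.

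**Figure D5:**
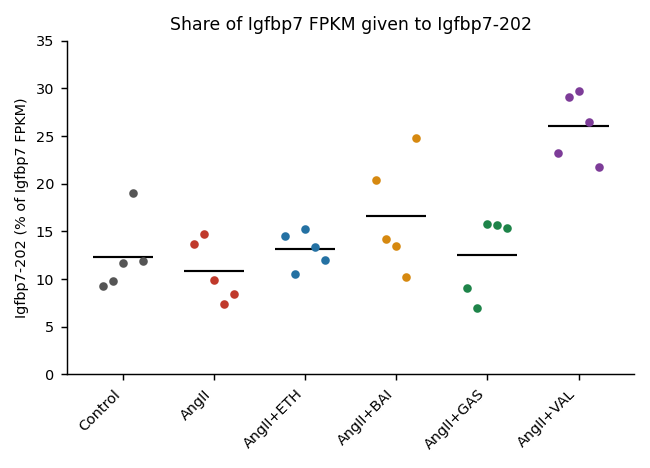
Points give the percent of Igfbp7 FPKM assigned to the 6-exon transcript in each library, with a line at each group mean (n = 5). The AngII+VAL libraries lie between 21.8% and 29.7%, above all AngII libraries, which lie between 7.35% and 14.8%.

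The main Igfbp2 transcript (ENSMUST00000047328) held 98.6% ± 1.01 of Igfbp2 in AngII and 95.3% ± 3.16 in Control (exact permutation p = 0.0476, adjusted p = 0.238). That transcript therefore carried nearly all of the Igfbp2 signal in both groups. The main Igfbp4 transcript (ENSMUST00000017637) held 100% in AngII+ETH and 99.0% ± 0.427 in AngII (exact permutation p = 0.0079, adjusted p = 0.0794). Control 3 was alone in placing 56.6% of Igfbp4 (42.0 FPKM) in another (ENSMUST00000140772).

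The rest of the pathway was read through 6 lists of 86 genes, of which 78 were listed and 76 passed the filter. None was called in AngII against Control or in a compound group against AngII. Among ligands, carrier and receptors outside the 9 members, 3 genes passed the filter. Igf2, the second ligand, had 7.17 ± 2.07 FPKM in Control, 7.99 ± 3.83 in AngII and 4.59 ± 1.5001 in AngII+GAS (SD, n = 5 each). Its log2 difference from AngII was -0.62 with gastrodin (SE 0.24, limma adjusted p = 0.262) and -0.51 with valsartan (adjusted p = 0.439). Igfals, the subunit that stabilises circulating IGF complexes, had lower ranges than Control in AngII+ETH and AngII+GAS (0.703% and 0.817% of all genes did so), with adjusted p of 0.959 and 1.

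Proteases that cleave binding proteins, with their inhibitors, had 11 of 12 tested genes at higher values in AngII than in Control and 0 called, with a median log2 difference of 0.52 against 0.11 over all genes. Over all libraries with angiotensin II the values of 12 of 12 were higher, with a median of 0.44 against 0.03. The fibroblast marker list moved with this group, as given above, and its part was not tested. In AngII+BAI against Control Timp1, an inhibitor of matrix metalloproteinases, rose by 2.78 on the log2 scale (SE 0.68, limma adjusted p = 0.0399), from 15.5 ± 13.4 to 142 ± 137 FPKM (SD, n = 5 each). Its AngII+BAI values were 111, 29.4, 362.5, 31.3 and 174 FPKM, highest in libraries 3 and 5, and without them the difference was 1.83 (adjusted p = 0.208). Leaving out 1 library at a time lost the Timp1 call in 7 of 10 cases.

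Receptor signalling genes had 27 of 42 at higher and 15 at lower values in AngII than in Control, with a median of 0.14 against 0.11 over all genes. Shc1, an adaptor bound by the activated receptor, had 40.8, 32.2, 43.8, 34.7 and 37.6 FPKM in AngII and 25.4, 23.8, 26.8, 18.0 and 28.6 FPKM in Control. The ranges were separate (0.61, SE 0.15, limma adjusted p = 0.163). Mapk3, which encodes ERK1, had 80.6 ± 24.6 FPKM in AngII and 54.8 ± 3.25 FPKM in Control (0.50, SE 0.18, adjusted p = 0.291). Against AngII, baicalin gave Irs1, the insulin receptor substrate, 4.70 ± 0.994 against 7.23 ± 1.93 FPKM (-0.52, adjusted p = 0.139), Grb14 -1.004 (adjusted p = 0.166) and Gab1 -0.54 (adjusted p = 0.175). Gastrodin gave Gsk3b, the kinase that AKT inhibits, -0.31 (adjusted p = 0.261). Valsartan gave Gab1 -0.59 (adjusted p = 0.233). With ethoxysanguinarine Shc1 differed from AngII by -0.33, Ghr, the growth hormone receptor, by -0.44 and Igf2 by -0.46 (each adjusted p = 0.994).

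Rps6kb1, the S6 kinase downstream of AKT and mTOR, had 1.67 ± 0.425 FPKM in AngII+VAL and 7.92 ± 3.47 FPKM in AngII (SD, n = 5 each; -1.61, SE 0.40, limma adjusted p = 0.128). All 5 AngII+VAL values, from 1.24 to 2.35 FPKM, lay below 4 AngII values, and AngII 5 had 1.89 FPKM. Rps6kb1 values below 3 FPKM also occurred in 3 AngII+ETH libraries, 1 AngII+BAI library and 1 AngII+GAS library, whereas the lowest Control value was 8.06 FPKM.

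The IGF messenger binding proteins had 1 tested gene, at -0.08 in AngII against Control. The growth hormone input to Igf1 had 2 of 6 genes at higher and 4 at lower values in AngII than in Control (median -0.21 against 0.11 over all genes). Socs2, a brake on growth hormone signalling, rose in AngII+BAI against Control from 5.31 ± 1.26 to 9.67 ± 1.80 FPKM (SD, n = 5 each; 0.76, SE 0.20, limma adjusted p = 0.0491). In that comparison this list had 1 gene at higher and 5 at lower values (median -0.26 against 0.09 over all genes). Socs2 and Timp1 were the 2 of 76 tested pathway genes called there, against 1.44% of all genes. The Socs2 call was lost in 8 of 10 cases on leaving out 1 library, and without AngII+BAI 3 and 5 the adjusted p was 0.0909. Targets of the FOXO factors, which IGF signalling through AKT holds out of the nucleus, had 7 of 12 genes at higher and 5 at lower values in AngII than in Control (median 0.12 against 0.11). Pdk4, a FOXO target that limits glucose oxidation, had 132 ± 75.9 FPKM in AngII and 325.5 ± 108 FPKM in Control (-1.43, SE 0.42, limma adjusted p = 0.215). Brown adipocyte markers were also lower in AngII, as given above, and their part in the Pdk4 difference was not tested. Pdk4 was 1.02 higher than AngII with valsartan on the log2 scale (adjusted p = 0.368). Gadd45a, a growth arrest gene, was -0.63 from AngII with gastrodin (adjusted p = 0.181).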

How the data were processed

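RNA was extracted with the mirVana kit, depleted of ribosomal RNA and made into libraries with the NEBNext Ultra kit, per the labels' protocols. The authors deposited FPKM values per transcript, aligned to mm10 per the submitters' processing notes, which also name limma. No aligner or quantifier is named in these sources. The unit was inferred from the values. Of 33677 Ensembl transcripts, 33638 matched GENCODE M21; FPKM were summed per gene over the 27797 annotated transcripts listed in all groups. limma 3.58.1 (R 4.3.3, trend and robust) was fitted on log2(FPKM + 1) with 1 mean per group over 30 libraries (24 residual degrees of freedom), for genes that reached 1 FPKM in 5 libraries or more; pseudocount, filter and scaling were varied. Correlations used group-centred values and permutations within groups. Python 3.11.15 with pandas 2.3.3, numpy 2.4.6, scipy 1.17.1 and matplotlib 3.10.9 was used for the rest. On data simulated for AngII against Control over 13223 genes, limma called 48% of 100 genes changed by 1 log2 unit and 89% of 100 changed by 2 log2 units. Values were drawn independently for each gene from a normal distribution, without the relations between genes or the outlying libraries of the real data. These percentages therefore do not give the power of the real comparison. The members, lists and tests were chosen with earlier results of these data known. Pathway genes were named by rule: those called in AngII against Control or a compound group against AngII, and the 3 lowest p-values in each; 1 such result is not reported here. Timp1, Socs2 and Igfals were named after their values were seen, and genes like a member by the 3 highest Pearson correlations.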

Additional observations from a re-analysis of the deposited data

Results flagged for a closer look

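Of 54 groups of 5 values (9 genes in 6 groups), 11 held a library set apart from the rest, in that its gap to the nearest library was over 0.71 of the group's range. For independent values with a normal distribution this limit sets apart about 1 in 20 groups. The FPKM values were not shown to be normal, and some of the genes varied together. The count of 11 therefore cannot be set against that rate. Igfbp3 had 4 of the 11, each the highest of its group: 34.6 FPKM in AngII 5, 30.7 FPKM in AngII+ETH 5, 50.8 FPKM in AngII+BAI 5 and 21.01 FPKM in AngII+VAL 5. Libraries were numbered in the order of deposition, and the labels do not say whether equal numbers share anything. AngII+ETH 4 was the highest of its group in both Igfbp2 (132 FPKM, nearest 79.6) and Igfbp7 (2211 FPKM, nearest 1509.6). AngII 5 was the highest of its group in Igfbp6 (247 FPKM, nearest 132). AngII+VAL 4 was the highest of its group in Igf1r (4.11 FPKM, nearest 0.97). In Control, library 1 was highest in Igf1 (16.1 FPKM, nearest 10.4), library 3 lowest in Igf2r (6.23 FPKM, nearest 12.2) and library 2 lowest in Igfbp5 (126 FPKM, nearest 149).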

How the results depend on the processing

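Outside settings that leave out 1 library, 593 of the alternative values kept their direction and side of the threshold and 30 reversed. A further 21 counts moved, 12 values were classed as stronger and 1 as weaker. With 1 library left out, 849 held, 45 reversed, 15 moved, 10 were classed as weaker and 1 as stronger. The cause was not tested. Members called, 0 unless given, became 1 in AngII against Control, in any of the 6 groups and in AngII+ETH, AngII+GAS and AngII+VAL against Control with array weights. They became 1 in AngII against Control, in any group and in AngII+ETH and AngII+GAS against Control without AngII+BAI 3 and 5. With a smooth muscle term they became 1 in AngII, AngII+ETH and AngII+GAS against Control and 2 in any group, in AngII+BAI against Control (from 1) and in all libraries with angiotensin II against Control (from 1). With unlisted transcripts set to 0 they became 1 in any group and AngII+ETH against Control. With the 2 groups only they became 1 in AngII+ETH and 0 in AngII+BAI against Control, and 2 in the latter after quantile normalization or with neuron and skeletal muscle terms. Leaving out 1 library gave 0 to 1 members in AngII+BAI against AngII (transcripts 0 to 1), in any group and in all libraries with angiotensin II, and 0 to 2 in AngII+BAI against Control.

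Some log2 differences changed sign. With neuron and skeletal muscle terms, Igfbp3 was -0.10 in AngII against Control; against AngII, Igfbp3 was 0.018 and Igfbp7 0.075 with ethoxysanguinarine, Igf1r 0.28 and Igfbp3 0.23 with baicalin, Igfbp2 -0.22 and Igfbp3 0.16 with gastrodin, and Igf2r -0.060, Igfbp3 0.17, Igfbp4 0.065 and Igfbp5 0.068 with valsartan. Without Control 1 and 2 and AngII 1, 4 and 5, Igfbp3 was -0.017, Igfbp4 0.20 and Igfbp5 0.11 in AngII against Control. With array weights, against AngII, Igfbp3 was 0.074 with ethoxysanguinarine, Igf1 -0.28, Igf2r 0.18 and Igfbp2 0.45 with baicalin, Igfbp2 -0.072 with gastrodin and Igfbp4 0.019 with valsartan. Under baicalin, Igf1 was -0.64, Igfbp2 0.99 and Igfbp7 0.18 without AngII+BAI 3 and 5, and -0.29, 1.11 and 0.31 with a smooth muscle term, which gave Igf2r -0.12 with gastrodin. Quantile normalization gave Igfbp5 0.0088 with valsartan, and median of ratios scaling Igfbp7 0.045 with ethoxysanguinarine and Igfbp5 0.090 with valsartan.

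Leaving out 1 library, Igfbp4 ran from -0.22 to 0.21 in AngII against Control. Against AngII, Igf2r ran from -0.15 to 0.24, Igfbp3 from -0.40 to 0.21 and Igfbp7 from -0.18 to 0.10 with ethoxysanguinarine. With baicalin Igf1 ran from -0.26 to 0.51, Igf2r from -0.71 to 0.52, Igfbp2 from -0.46 to 0.50 and Igfbp3 from -0.62 to 0.17. With gastrodin Igf2r ran from -0.17 to 0.23 and Igfbp2 from -0.25 to 0.40. With valsartan Igf1r ran from -0.21 to 0.25, Igf2r from -0.24 to 0.16, Igfbp3 from -0.52 to 0.0084, Igfbp4 from -0.48 to 0.12 and Igfbp5 from -0.15 to 0.12. Transcript shares, in percentage points, ran from -0.395 to 13.8 for the main transcript of Igfbp4 and from -0.149 to 2.50 for that of Igfbp7 in AngII against Control; that of Igf1 from -3.43 to 3.02, -5.29 to 3.62 and -3.27 to 2.23 with ethoxysanguinarine, baicalin and gastrodin; that of Igfbp2 from -0.0611 to 0.730 with baicalin and -0.0314 to 0.606 with valsartan; and that of Igfbp4 from -0.0168 to 0.526 with valsartan. No paired analysis was possible because the labels give no replicate numbers. At 5 libraries per group the spread between libraries limits these comparisons. The smooth muscle term and the settings that leave out several libraries were chosen after seeing the data.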
